A study of Mus musculus with 3 samples.

Results

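The genes described here encode the subunits of the receptors for GABA and glutamate, the main inhibitory and excitatory transmitters of the forebrain. They were taken by symbol from the mouse RefSeq gene table (GRCm38.p6, the patched form of mm10) and numbered 47 of 21887 protein-coding genes: 21 for GABA receptors (19 of type A and 2 of type B) and 26 for glutamate receptors (4 AMPA, 5 kainate, 7 NMDA, 2 delta and 8 metabotropic, or mGlu). Peaks of MEIS2 CUT&Tag, an assay in which an antibody directs a transposase to cut and tag the DNA near a bound protein, were read at these genes. MEIS2 belongs to the TALE family of homeodomain proteins, which bind DNA and often pair with PBX proteins. Each library was made from 100000 cells of the lateral ganglionic eminence (LGE), the embryonic source of striatal projection neurons and olfactory bulb interneurons, of wild-type CD1 mouse embryos at embryonic day 14.5. The first group was 2 libraries made with a mouse polyclonal antibody to MEIS2, and the second was 1 library of the same tissue made with no antibody. The labels do not say whether the 2 MEIS2 libraries came from separate litters, so their spread may be technical. Peak positions measure no expression, so the tissue was not checked against marker genes, and a peak does not say whether a gene is transcribed.

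GABA-A receptors are chloride channels of 5 subunits, most often alpha, beta and gamma, and their genes lie in groups of neighbours that arose by duplication. GABA-B receptors are obligate pairs of G protein-coupled subunits. AMPA, kainate and NMDA receptors are cation channels of 4 subunits, the delta receptors act mainly in synapse formation, and the mGlu receptors signal through G proteins. In the LGE most neurons that are born will release GABA, and both kinds of receptor are known to act on migrating and maturing neurons before synapses form.

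The 2 MEIS2 libraries held 7618406 and 6559629 unique tags and gave 78060 and 82093 peaks, and the no-antibody library held 6337375 tags and gave 9869 peaks. Unique tags were 8.22% to 10.3% of the aligned tags, so the 3 libraries were similar in depth and most of their reads were duplicates. A peak was called reproducible where a peak of the first MEIS2 library overlapped one of the second by at least 1 bp and overlapped no peak of the no-antibody library, which left 47809 peaks. In the windows of the receptor genes (the gene and 50 kb on each side) 295 of 461 peaks of the first library (64.0%, against 67.0% of all its peaks) overlapped the second. The fold enrichment of each peak is the peak caller's own value from the deposited lists, the pileup of extended tags over the pileup expected locally, and is given here for the first and then the second MEIS2 library. The pileups are small, with medians of 17 and 12.5 tags, so the fold of a single peak is coarse.

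The starts of 4 genes with the strongest peaks within 1 kb and of 2 genes with none are shown first, because the contrast between occupied and empty starts runs through the results. Each line gives the 250 bases before the most upstream start listed by RefSeq (GRCm38.p6), 5′ to 3′ on the gene's strand. Capitals mark TGACAG or its reverse complement CTGTCA, the core that MEIS proteins are known to prefer. The first 4 are Gabrb2 (chr11:42420190-42420439, plus strand, beta 2 subunit), Gabra2 (chr5:71095850-71096099, minus strand, alpha 2), Gabrg3 (chr7:57387216-57387465, minus strand, gamma 3) and Gabrq (chrX:72824928-72825177, plus strand, theta). The last 2, with no reproducible peak within 1 kb of a listed start, are Gabra3 (chrX:72656920-72657169, minus strand, alpha 3) and Gabra6 (chr11:42321073-42321322, minus strand, alpha 6, a subunit typical of cerebellar granule cells).
Gabrb2: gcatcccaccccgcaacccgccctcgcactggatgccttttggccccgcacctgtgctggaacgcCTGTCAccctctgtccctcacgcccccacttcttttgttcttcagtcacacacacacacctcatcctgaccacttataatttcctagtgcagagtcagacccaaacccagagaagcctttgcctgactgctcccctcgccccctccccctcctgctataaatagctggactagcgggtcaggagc
Gabra2: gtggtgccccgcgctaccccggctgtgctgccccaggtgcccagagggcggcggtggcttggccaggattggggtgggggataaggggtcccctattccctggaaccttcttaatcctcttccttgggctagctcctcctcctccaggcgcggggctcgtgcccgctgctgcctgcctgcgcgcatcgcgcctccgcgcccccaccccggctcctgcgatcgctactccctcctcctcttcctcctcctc
Gabrg3: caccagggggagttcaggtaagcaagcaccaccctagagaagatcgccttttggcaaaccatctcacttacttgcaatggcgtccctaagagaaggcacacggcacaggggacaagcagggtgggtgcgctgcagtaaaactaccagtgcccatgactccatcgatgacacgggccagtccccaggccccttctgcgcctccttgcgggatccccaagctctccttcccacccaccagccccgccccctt
Gabrq: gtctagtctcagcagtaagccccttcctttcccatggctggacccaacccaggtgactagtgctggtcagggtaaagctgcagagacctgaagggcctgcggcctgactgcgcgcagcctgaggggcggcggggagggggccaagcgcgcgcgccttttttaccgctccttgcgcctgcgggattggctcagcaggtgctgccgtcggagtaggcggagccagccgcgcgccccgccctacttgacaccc
Gabra3: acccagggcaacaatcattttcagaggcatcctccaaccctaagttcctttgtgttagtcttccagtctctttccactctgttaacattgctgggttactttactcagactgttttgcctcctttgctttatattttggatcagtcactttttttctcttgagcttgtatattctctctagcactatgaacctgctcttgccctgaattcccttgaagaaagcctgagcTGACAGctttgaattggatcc
Gabra6: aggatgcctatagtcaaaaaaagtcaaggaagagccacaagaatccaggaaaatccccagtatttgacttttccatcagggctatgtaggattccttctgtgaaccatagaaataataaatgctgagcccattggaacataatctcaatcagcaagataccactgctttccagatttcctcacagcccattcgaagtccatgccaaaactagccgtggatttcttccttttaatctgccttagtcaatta

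The 4 occupied starts held 58.8% to 70.0% G and C and 8 to 19 CpG dinucleotides in these 250 bases, while the starts of Gabra3 and Gabra6 held 42.4% and 40.8%, with 0 and 2 CpGs. The medians of the 32 receptor genes with a listed start divided the same way. Of these, 22 (68.8%) had a peak within 1 kb of it, against 54.3% of all protein-coding genes with a listed start. The 22 genes with a peak had a median of 64.6% G and C and 16 CpGs, and the 10 genes without had 46.8% and 2.5 CpGs. Single genes crossed this divide. Of the empty starts, Gabre (68.8% and 21 CpGs), Grik2 (62.8% and 20) and Grm3 (62.4% and 8) were as rich as occupied ones, and the occupied starts of Grin3b (46.0% and 2) and Grm6 (47.6% and 4) were as poor as empty ones. The medians of all protein-coding genes divided alike, at 62.4% and 18 CpGs with a peak and 47.6% and 3.00 CpGs without.

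The MEIS core was about as common in receptor promoters as in all promoters. TGACAG or CTGTCA occurred in 5 of 32 receptor promoters (15.6%) and in 15.5% of 17492 listed promoters of all protein-coding genes. Among starts with a peak the motif was in 4 of 22 receptor promoters (18.2%) and in 13% of all promoters with a peak. Among starts without a peak it was in 1 of 10 receptor promoters (10.0%) and in 18.2% of all, so over all genes the core was less common at occupied than at empty starts. The longer PBX-MEIS motif TGATTGAC (GTCAATCA on the other strand), which overlaps TGACAG by its last 4 bases where both occur, was in 0 of 32 receptor promoters and in 0.737% of all. Of the printed starts, Gabrb2 had the core with a peak and Gabra3 had it with none. These are matches of letters in 250 bases and not binding sites.

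The share of receptor genes with a MEIS2 peak at a gene end was near that of all protein-coding genes, and which was higher depended on gene length and on how peaks were matched. A reproducible peak with its summit within 1 kb of either end of the gene was present at 29 of 47 receptor genes (61.7%) and at 52.4% of all protein-coding genes. A peak inside the gene was present in 38 of 47 (80.9%, against 59.9%), and a peak in the gene or within 50 kb at 46 of 47 (97.9%, against 92.8%). The receptor genes are long, with a median of 183 kb against 17.2 kb, and length bears on these shares. Among genes of 100 kb or longer, 19 of 26 receptor genes (73.1%) and 65.6% of all such genes had an end peak. Among shorter genes the shares were 10 of 21 (47.6%) and 50.7%. A peak inside the gene was present in 96.2% of receptor genes and 94.1% of all genes of 100 kb or longer, and in 61.9% and 55.6% of shorter ones. For a peak in the gene or within 50 kb the shares were 100% and 99.1%, and 95.2% and 92.0%. With a reciprocal overlap of 50% between the libraries an end peak was present at 44.7% of receptor genes and 45.4% of all. With −log10 q of at least 5 in every list the shares with an end peak were 42.6% and 40.4%. No test was made of any difference between sets of genes, since the sets were chosen with results known.

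The 47 windows covered 16.8 Mb and held 258 distinct reproducible peaks, or 1.54 per 100 kb, while the windows of all protein-coding genes held 2.14. With 1 MEIS2 library alone the windows held 423 or 431 peaks that overlapped no no-antibody peak. Of the 258, 33 (12.8%) lay at the end of the receptor gene itself and 129 (50.0%) inside it. Another 31 lay in the flanks at the end of another protein-coding gene and 65 elsewhere in the flanks. The strongest peaks were away from gene ends, inside the genes and in the flanks. A fold of 10 in both libraries was reached by 20 of the 129 inside peaks and 8 of the 65 elsewhere in the flanks. It was reached by 1 of the 33 end peaks and by 0 of the 31 at the end of another gene. For all reproducible peaks the counts were 5892 of 36659 away from gene ends and 326 of 11150 at them.

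**Figure D1:**
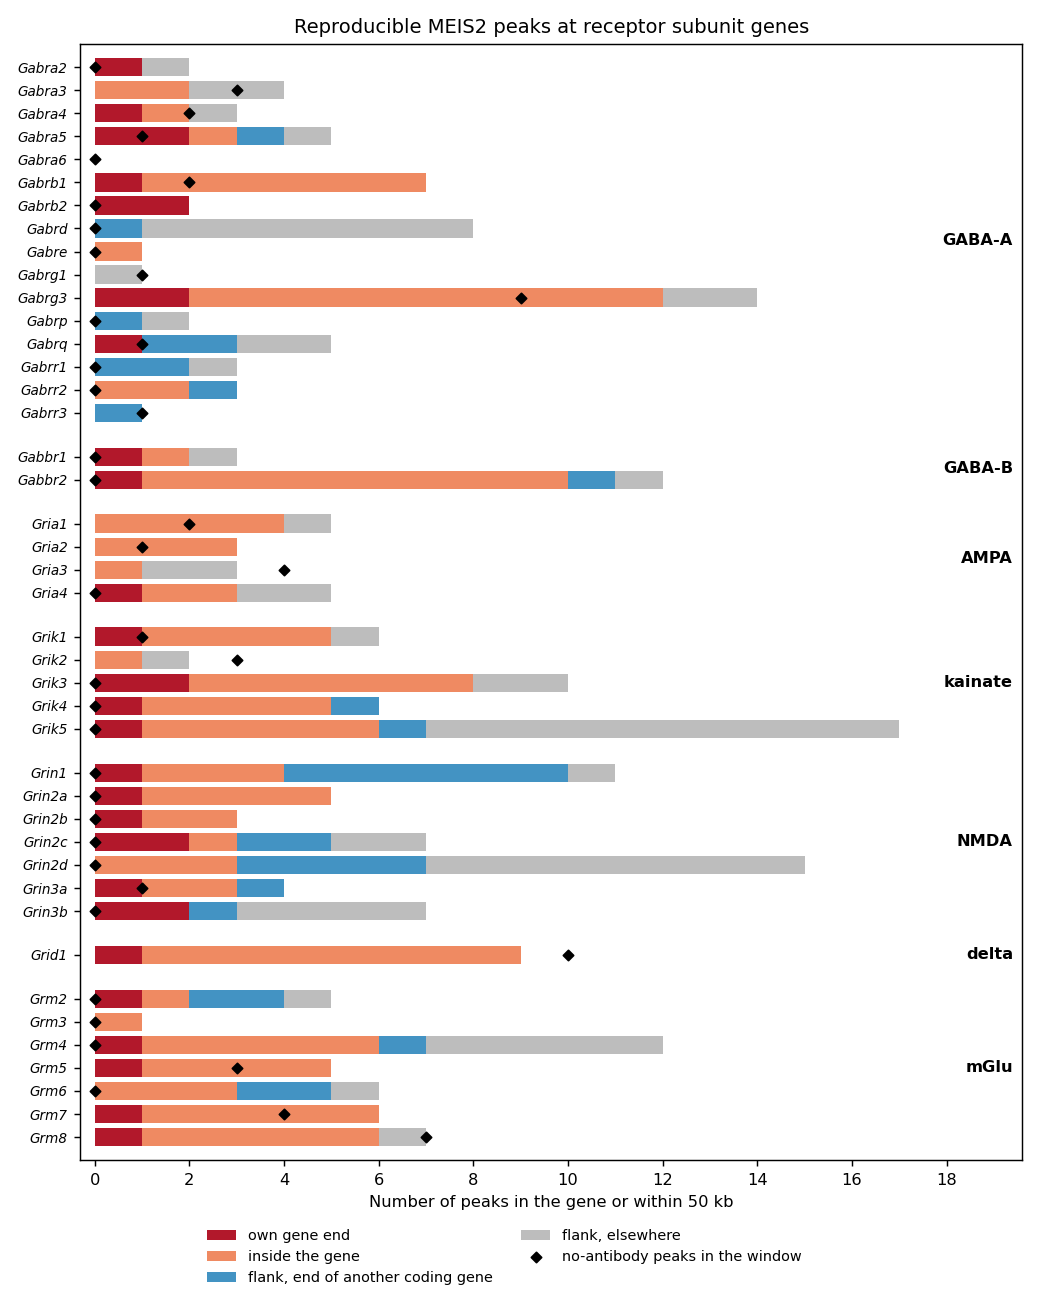
Reproducible MEIS2 peaks per receptor gene, stacked by place (own end, inside, flank at another gene's end, flank elsewhere), with diamonds for the number of no-antibody peaks in the same window, for 42 of the 47 genes; GABA receptor genes are above glutamate receptor genes. Grik5 has the most peaks (17), Gabra6 has 0, and the no-antibody peaks number 10 at Grid1 and 9 at Gabrg3.

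Of the 19 GABA-A genes 9 (47.4%) had an end peak, against 52.4% of all protein-coding genes. The beta genes Gabrb1 and Gabrb2 and the alpha genes Gabra2, Gabra4 and Gabra5 had an end peak, while Gabra3 and Gabra6 had none. Beta subunits form the GABA site together with alpha subunits. Of the gamma genes Gabrg3 had an end peak and Gabrg1 had none. None of the 3 rho genes (Gabrr1, Gabrr2 and Gabrr3), known best from the retina, had an end peak. Of Gabrd, Gabre, Gabrp and Gabrq, only Gabrq had one. All 9 GABA-A genes with an end peak were members of a group of neighbours.

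End peaks of GABA receptor genes had higher folds than those of glutamate receptor genes. The 12 GABA peaks had a median fold of 9.17 and 7.68 and the 21 glutamate peaks 5.23 and 5.02, while all end peaks of protein-coding genes had 7.58 and 6.38. By the lower of its 2 folds a GABA peak lay between 5.02 and 10.5 and a glutamate peak between 3.06 and 6.38. The ranges overlap between 5.02 and 6.38, and 8 of 12 GABA peaks lay above the highest glutamate peak. The pileups differed less, with medians of 21.5 and 15.5 tags at GABA ends and 17 and 13 at glutamate ends. The locally expected pileup, worked out from each peak's pileup and fold, was lower at GABA ends, at 1.39 and 0.867 tags against 2.56 and 1.73. When pooled, the higher fold at GABA ends thus goes with a somewhat higher pileup and a lower local expectation. The order of the folds held in both length classes, but the pileups and expected values beside it differed. At 100 kb or longer the fold medians were 10.4 and 8.29 for GABA and 5.85 and 5.65 for glutamate. The GABA pileups there were higher (23 and 17 tags against 16 and 12), and the expected values were closer (1.46 and 1.00 against 1.69 and 0.988 tags). Under 100 kb, with 4 GABA and 8 glutamate peaks, the folds were 7.64 and 7.01 against 4.48 and 4.73. The GABA pileups there were lower (16 and 11 tags against 19 and 15), as were the expected values (0.841 and 0.568 against 4.09 and 2.45).

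**Figure D2:**
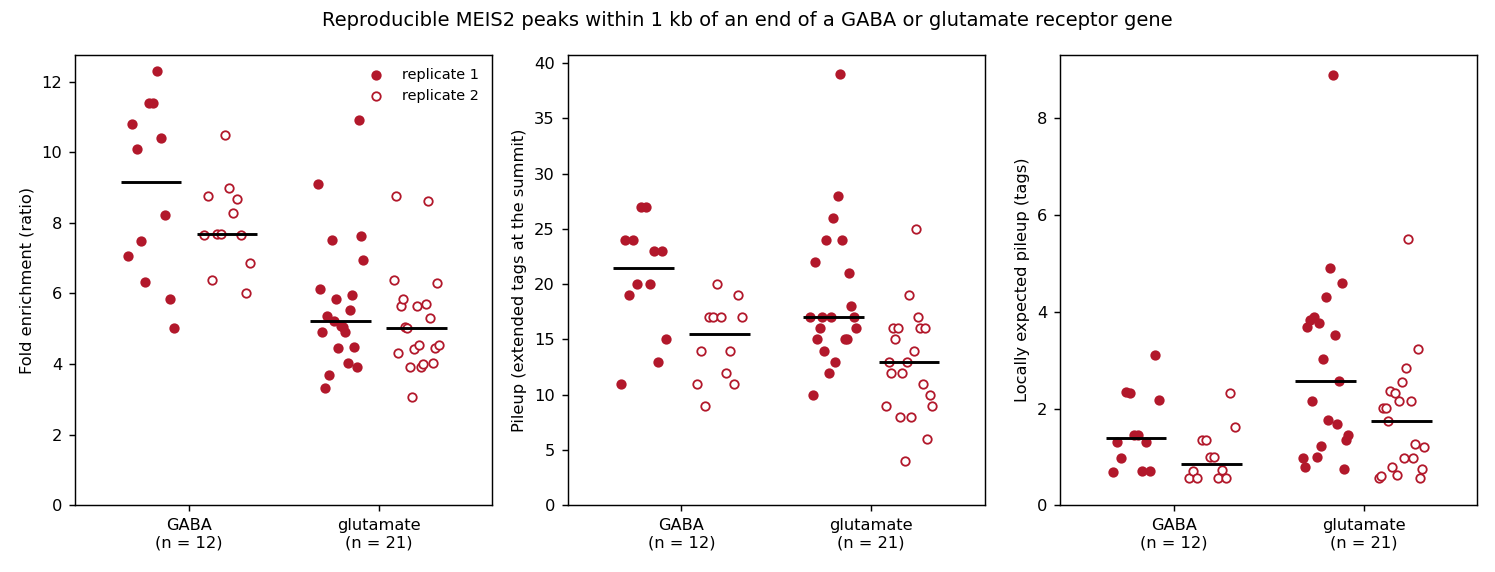
Fold enrichment, pileup and locally expected pileup (vertical axes) of the reproducible peaks within 1 kb of an end of a GABA (left) or glutamate (right) receptor gene; each point is a peak, filled for the first MEIS2 library and open for the second, and bars are medians. Fold medians are 9.17 and 7.68 at GABA ends and 5.23 and 5.02 at glutamate ends, while the pileups overlap widely.

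Of the 10 receptor genes with the strongest end peak, 9 were GABA-A genes in groups, and the tenth was the AMPA gene Gria4. Gabrb2 led with a pair of peaks, chr11:42418526-42418834 (11.4-fold and 10.5-fold, pileup 27 and 20) and chr11:42419927-42420291 (11.4-fold and 8.98-fold). The peak of Gabra2, chr5:71095658-71096313, had 10.8-fold and 8.76-fold and its summit lay 225 bases before the listed start. Gabrg3 had one at each end: chr7:57386520-57387236 at its start (10.4-fold and 8.68-fold) and chr7:56716501-56716838 at its 3′ end (12.3-fold and 8.29-fold). Gabrq followed with chrX:72824999-72825505 (8.23-fold and 7.65-fold), and the strongest end peak of Gabra5, whose alpha 5 subunit is typical of the hippocampus, had 7.49-fold and 7.68-fold. The no-antibody library had a peak at an end of 0 of the 47 genes, and of 0.270% of all protein-coding genes.

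On chromosome 5 a single peak lay at the ends of both Gabra4 (minus strand) and Gabrb1 (plus strand), which overlap by 388 bp at their starts. The peak chr5:71657548-71658367 covered the overlap with 10.1-fold and 6.38-fold enrichment. Counts by gene therefore count such a peak more than once, and the 12 GABA end peaks are distinct peaks. Gabra5 had a further peak at its only listed start, chr7:57509031-57510011 (8.80-fold and 7.47-fold), which lies inside the gene as RefSeq bounds it.

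The 16 GABA-A genes in groups of neighbours (each within 1 Mb of another) lay in 5 groups, which differed in where their peaks lay. On chromosome 11, Gabrb2 had 2 peaks in its window, both of them the end peaks given above, and no reproducible peak inside the gene away from its ends. Gabra6, in the same group, was the only one of the 47 genes with no reproducible peak within 50 kb. Neither gene had a no-antibody peak in its window.

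The group on chromosome 5 (Gabrg1, Gabra2, Gabra4 and Gabrb1, 1399 kb) held 16 peaks: 2 at gene ends, 7 inside a gene and 7 between genes. The strongest inside peak of all 47 genes was in Gabrb1, chr5:71984423-71984947, with 21.3-fold and 18.4-fold enrichment and a pileup of 55 and 53. A second in Gabrb1, chr5:71831848-71832639, had 15.1-fold and 15-fold enrichment and pileups of 85 and 81. Gabrg1 had no peak of its own, but chr5:70862711-70863045 (20.2-fold and 17.0-fold) lay 20.3 kb beyond it, on the side of Gabra2. The 474 kb between Gabra2 and Gabra4 held 6 of the 7 peaks between genes. The no-antibody library had 7 peaks across this group.

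On chromosome 7, Gabrg3, the longest GABA-A gene at 671 kb, had 14 peaks in its window, 2 of them at its ends and 10 inside the gene. The highest of the inside peaks was chr7:57251717-57252103 (11.7-fold and 12.3-fold). The window also held 9 no-antibody peaks, of which 8 were inside Gabrg3. The X-chromosome group (Gabre, Gabra3 and Gabrq, 586 kb) had 13 peaks, with 1 at an end, 3 inside genes, 5 between genes and 4 beyond them. Its strongest lay on both sides of Gabra3, at chrX:72405216-72405715 (17.2-fold and 17.4-fold, 27.3 kb away) and chrX:72685116-72685688 (17.8-fold and 15.3-fold, 28.6 kb away), although the Gabra3 start printed above had none. The rho pair on chromosome 4 (Gabrr2 and Gabrr1, 106 kb) had 6 peaks, 2 inside Gabrr2 and 4 outside, and no no-antibody peak. The inside peak chr4:33073391-33073856 had 12.6-fold and 10.5-fold enrichment, and 3 of the 4 outside lay at the ends of the neighbours Ube2j1, Pm20d2 and Srsf12.

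**Figure D3:**
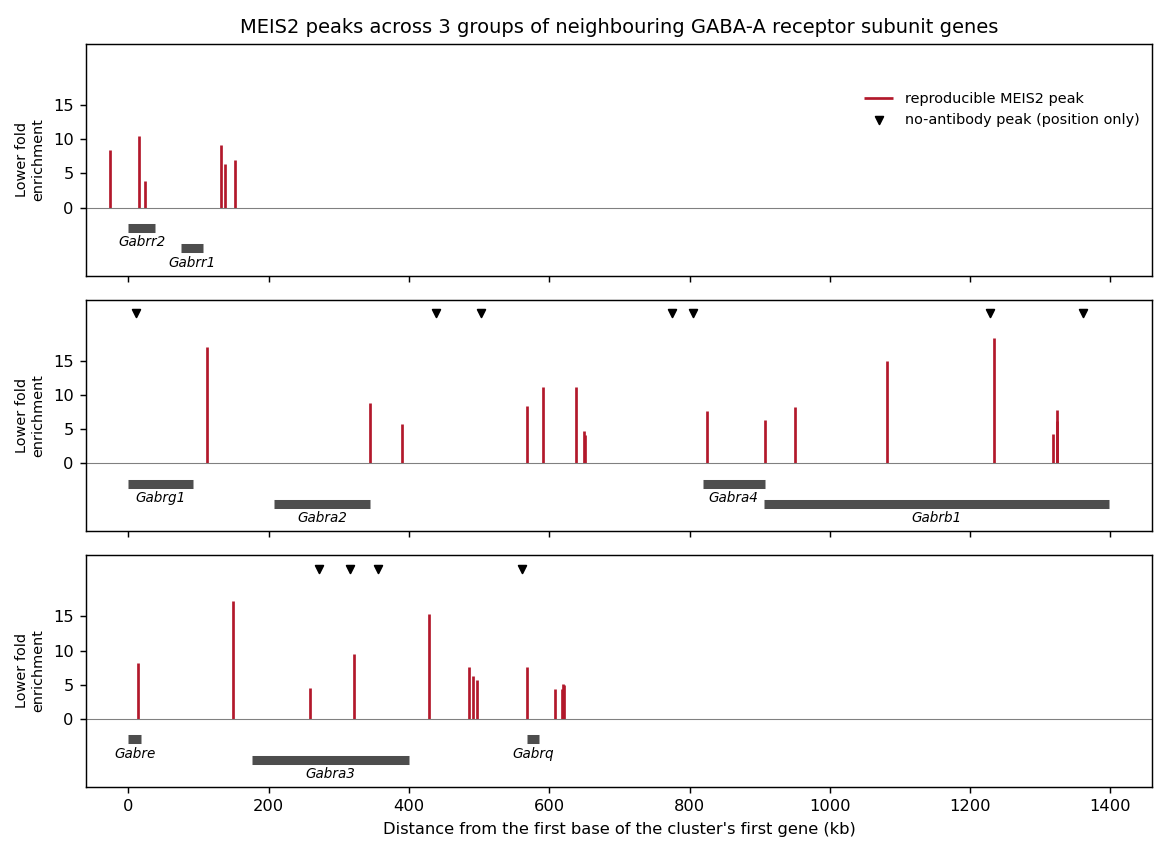
Reproducible MEIS2 peaks (red lines, height is the lower fold enrichment of the 2 libraries) and no-antibody peaks (black triangles, position only) across 3 groups of neighbouring GABA-A genes (grey bars), by distance in kb from the first base of each group. The chromosome 4 group at the top has 6 peaks, the chromosome 5 group in the middle has 16 with the tallest line at 18.4 inside Gabrb1, and the X-chromosome group has 13.

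The 3 GABA-A genes that stand alone (Gabrd, Gabrp and Gabrr3) had no peak in the gene or at its ends. Gabrd, whose delta subunit forms receptors outside synapses, had 8 peaks within 50 kb, or 7.07 per 100 kb, and 7 of them were at no gene's end. The strongest of these were chr4:155445337-155445729 (10.9-fold and 14.3-fold, 47.5 kb away) and chr4:155416153-155416771 (10.6-fold and 12.2-fold, 18.2 kb away). Another peak lay at an end of the neighbour Prkcz, which encodes an atypical protein kinase C. Gabrp had 2 flanking peaks, and the only one near Gabrr3, chr16:59471666-59472124 (14.1-fold and 8.93-fold), was at an end of Riox2.

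Both GABA-B genes had a peak at the start, as did 54.3% of all protein-coding genes with a listed start. Gabbr1, whose subunit binds GABA, had chr17:37045840-37046725 (5.83-fold and 6-fold), and Gabbr2, whose subunit couples to the G protein, had chr4:46991053-46992303 (5.02-fold and 6.87-fold). These were the lowest folds among the GABA end peaks by the lower value. Gabbr2 also held 9 peaks inside the gene, the highest by its lower fold being chr4:46736051-46736300 (7.52-fold and 8.58-fold). Neither gene had a no-antibody peak in its window.

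Of the 4 AMPA genes 1 had an end peak, the lowest share of any glutamate class with more than 2 genes. All 4 had peaks inside. The shares of all protein-coding genes were 52.4% and 59.9%. All 4 AMPA genes are longer than 100 kb, and at 100 kb or longer these shares were 65.6% and 94.1%. The 2 AMPA genes with a listed start, Gria2 and Gria4, both had a peak within 1 kb of it. The share was 75.5% among all protein-coding genes of 100 kb or longer with a listed start. The end peak of Gria4, chr9:4795394-4796383, had 9.09-fold and 6.38-fold enrichment. Its inside peak chr9:4771316-4772149 was stronger (16.5-fold and 15.2-fold, pileup 76 and 67). Gria2, whose edited subunit keeps calcium out of the channel, had a peak at its listed start, chr3:80802648-80803047 (9.76-fold and 6.88-fold), which is more than 1 kb inside the end of the gene as bounded by RefSeq and so was not counted as an end peak. It also had chr3:80742442-80743170 inside (14.1-fold and 15.1-fold). In Gria1 the highest of 4 inside peaks by its lower fold, chr11:57302533-57302803, had 8.82-fold and 14.0-fold enrichment. Gria3, on the X chromosome, had 1 inside peak (6.47-fold and 6.38-fold) and 3 peaks in its window, where the no-antibody library had 4.

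Of the 5 kainate genes 4 (80.0%) had an end peak, all but Grik2. The share was 52.4% among all protein-coding genes and 65.6% among those of 100 kb or longer. The kainate gene Grik1 held a pair of strong inside peaks, chr16:88104055-88104696 (16.8-fold and 16-fold, pileup 86 and 72) and chr16:88062296-88062677 (17.9-fold and 12.2-fold). Grik2, 696 kb long, had a single inside peak, chr10:49225030-49225469 (16.4-fold and 13.8-fold), and the lowest density of the 46 genes with any peak, 0.251 per 100 kb. Grik5, whose subunit joins receptors only with those of Grik1 to Grik3, had the most peaks of all 47 genes, 17, at 10.3 per 100 kb, and 11 of them were outside the gene. The end peak of Grik5 was at its 3′ end (3.68-fold and 5.05-fold), and a peak at its listed start lay inside the gene as bounded by RefSeq (3.49-fold and 4.19-fold). The folds at Grik5 were modest, at most 9.50 in the first library and 11 in the second in any peak of its window. Grik3 had a pair of peaks at its start and 6 inside, the highest being chr4:125582940-125583252 (10.5-fold and 8.13-fold).

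NMDA genes had the highest share with an end peak among the classes with more than 2 genes, 6 of 7 (85.7%). The share of all protein-coding genes was 52.4%. NMDA genes also had the highest median density of these classes, 5.93 peaks per 100 kb, against 2.70 for all protein-coding genes. It was 1.12 for AMPA, 1.21 for kainate and 0.888 for mGlu genes. These classes differ in length, with medians of 39.3 kb for NMDA and 298, 395 and 318 kb for AMPA, kainate and mGlu genes. All glutamate receptor genes under 100 kb had a median density of 6.41. The NMDA gene without an end peak, Grin2d, had a peak at its listed start inside the gene (chr7:45866001-45866441, 4.96-fold and 5.08-fold). The end peaks were weak. The highest by the lower fold were those of Grin2c (5.09-fold and 5.64-fold) and Grin1 (chr2:25318709-25319292, 7.51-fold and 5.02-fold). Grin1 encodes the subunit that every NMDA receptor holds. At Grin2a the end peak had 5.23-fold and 3.92-fold enrichment and at Grin2b 5.85-fold and 3.06-fold, the lowest of all 33 end peaks. A stronger peak inside Grin3a, chr4:49844617-49845526 (8.66-fold and 9.05-fold), had its summit 1.14 kb from the gene end. The dense windows were those of the short genes: Grin2d had 15 peaks (10.8 per 100 kb), Grin1 11 (8.59), Grin3b 7 (6.55) and Grin2c 7 (5.93). Of the Grin1 peaks 6 were at the ends of neighbours such as Anapc2, Ndor1 and Man1b1, and 11 other protein-coding genes reach into its window. In the Grin2d window 12 peaks were outside the gene, among neighbours such as Cyth2 and Grwd1. The long genes Grin2a and Grin2b had 5 and 3 peaks, all in the gene.

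The delta gene Grid1 is 763 kb long and had an end peak and 8 peaks inside it. Among them were chr14:35275237-35275701 (18.2-fold and 16.3-fold) and chr14:35403180-35403942 (17.8-fold and 17.0-fold). The end peak was weaker, at 5.52-fold and 5.71-fold. For its length Grid1 was close to the middle, with 1.04 peaks per 100 kb against a median of 1.14 for all protein-coding genes of 300 kb or longer.

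All 8 mGlu genes had a peak inside the gene and 5 (62.5%) had one at an end, against 59.9% and 52.4% of all protein-coding genes. At 100 kb or longer the shares of all protein-coding genes were 94.1% and 65.6%, and the mGlu genes had a median length of 318 kb. In group I, which couples to phospholipase C, Grm5 had an end peak that differed between the libraries (chr7:87584208-87584692, 10.9-fold and 4.46-fold). It held 4 further peaks inside, the highest by its lower fold being chr7:87616349-87616615 (11.3-fold and 6.46-fold). In group II, Grm2 had an end peak of 4.49-fold and 5.30-fold and Grm3 had a single peak in its window, chr5:9570247-9570495 (7.06-fold and 5.10-fold). In group III, Grm7 and Grm8 had end peaks of 7.63-fold and 6.30-fold and of 6.95-fold and 4.55-fold. Grm7 also held chr6:111013549-111013951 (18.6-fold and 16.1-fold). Grm4 had 12 peaks at 6.27 per 100 kb, none above 5.81-fold, with its end peak at 3.93-fold and 4.02-fold. Grm6, best known from retinal bipolar cells, had no peak within 1 kb of a gene end but had one within 1 kb of its listed start (chr11:50850894-50851656, 9.15-fold and 6.01-fold).

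Set side by side, an end peak was present at 11 of 21 GABA receptor genes (52.4%) and 18 of 26 glutamate receptor genes (69.2%), against 52.4% of all protein-coding genes, and the order turned with gene length. Among genes of 100 kb or longer the counts were 7 of 8 (87.5%) for GABA and 12 of 18 (66.7%) for glutamate, against 65.6% of all such genes. Among shorter genes they were 4 of 13 (30.8%) and 6 of 8 (75%), against 50.7%. Peaks inside the gene were present in 12 of 21 GABA genes (57.1%) and in 26 of 26 glutamate genes, against 59.9% of all. At 100 kb or longer these counts were 7 of 8 (87.5%) and 18 of 18, against 94.1% of all such genes. Under 100 kb they were 5 of 13 (38.5%) and 8 of 8, against 55.6%. The median length was 88.6 kb for GABA and 298 kb for glutamate genes. The pooled median density was 1.23 peaks per 100 kb for GABA and 1.17 for glutamate genes, but in genes under 100 kb it was 1.56 for GABA and 6.41 for glutamate, against 2.88 for all such genes. These short glutamate genes had a median of 5 other protein-coding genes reaching into the window, the short GABA genes 1 and all short genes 3. At 100 kb or longer the median density was 1.21 and 1.02, against 1.57, at median lengths of 231 and 412 kb, against 172 kb. The order of the end-peak counts also turned under stricter matching. With a reciprocal overlap of 50% between the libraries 11 GABA (52.4%) and 10 glutamate genes (38.5%) had an end peak, against 45.4% of all genes. With −log10 q of at least 5 in every list the counts were 11 (52.4%) and 9 (34.6%), against 40.4%.

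An end peak was present at 9 of 16 genes in the 5 groups (56.2%) and at 20 of 31 single genes (64.5%), against 52.4% of all protein-coding genes. The order turned at 100 kb or longer (85.7% of grouped and 68.4% of single genes, against 65.6%) and held in shorter genes (33.3% and 58.3%, against 50.7%). It also turned with a reciprocal overlap of 50% (56.2% and 38.7%) and with −log10 q of at least 5 (56.2% and 35.5%). Median densities were 1.18 and 1.21 per 100 kb when pooled, but 1.05 and 6.10 in genes under 100 kb, and 1.18 and 1.03 in longer ones. The short grouped genes had a median of 1 neighbouring gene in the window and the short single genes 4.5, and the longer ones had median lengths of 224 and 396 kb. End peaks of grouped and single genes differed in fold as the GABA and glutamate ones did, at medians of 10.3 and 7.98 for 10 peaks in groups and 5.23 and 5.05 for 23 peaks at single genes. All grouped genes encode GABA-A subunits and no single GABA-A gene had an end peak, so grouping and receptor type cannot be told apart. The only other GABA end peaks were the pair at Gabbr1 and Gabbr2, with medians of 5.43 and 6.44.

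Peak density over the 47 genes went with how crowded their surroundings were. Over the 47 genes Spearman's rho of peaks per 100 kb was 0.772 with the number of neighbouring protein-coding genes per 100 kb and -0.513 with gene length, while over all protein-coding genes it was 0.485 and -0.136. Peak density is divided by a window that includes the gene, and the number of neighbours is also taken per length, so these values are partly built in. The peak count in the window had a rho of 0.212 with gene length over the 47 genes. These are descriptions across genes, which share libraries and in places share peaks, and not across samples. Receptor genes of 100 kb or longer had a median density of 1.04 against 1.57 for all such genes, but the classes differ in length (medians of 387 and 172 kb). In narrower classes the densities were 1.04 against 1.14 at 300 kb or longer (16 receptor genes) and 1.21 against 1.79 at 100 to 300 kb (10 receptor genes). Receptor genes under 100 kb had a median density of 2.34 against 2.88. The shorter genes did not all go this way. Their distinct peaks together made 3.92 per 100 kb of window, against 2.65 for all genes under 100 kb, and the 10 receptor genes of 10 to 30 kb had a median of 4.37 against 3.30.

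**Figure D4:**
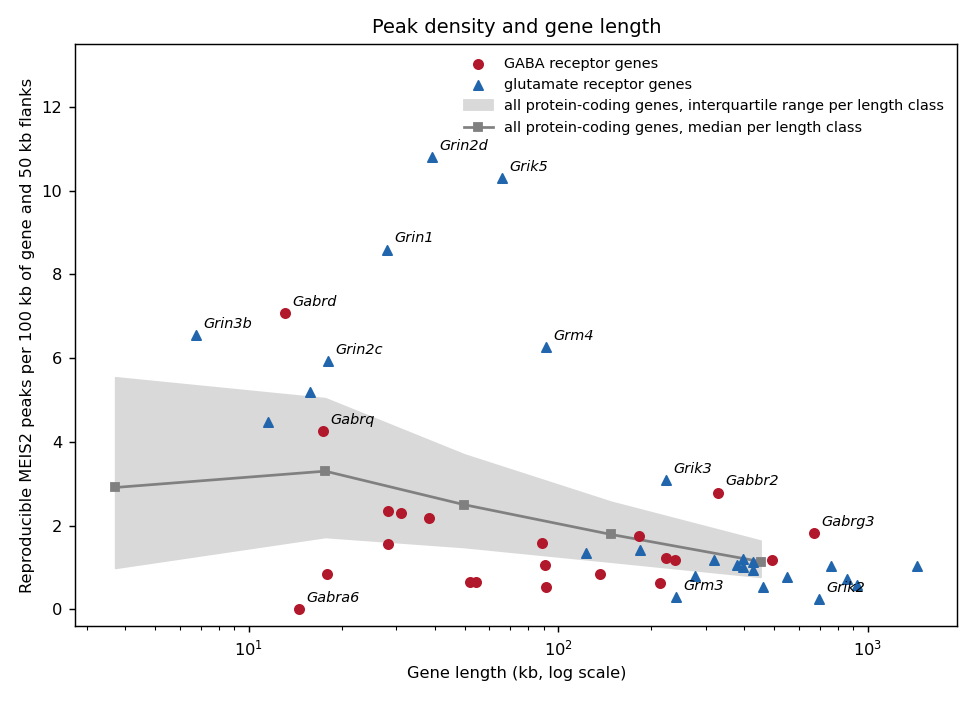
Reproducible MEIS2 peaks per 100 kb of the gene and its 50 kb flanks (vertical) against gene length in kb (horizontal, log scale) for GABA (circles) and glutamate (triangles) receptor genes, with the median and interquartile range of all protein-coding genes in 5 length classes. Grin2d (10.8), Grik5 (10.3) and Grin1 (8.59) lie above the grey band, and Gabra6 (0), Grm3 (0.294) and Grik2 (0.251) lie below it.

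Without an antibody, peaks were also found near receptor genes. The no-antibody library had a peak in the windows of 21 of 47 receptor genes (44.7%), against 26.6% of all protein-coding genes, and among genes of 100 kb or longer in 16 of 26 (61.5%) against 53.2%. Among shorter genes the shares were 5 of 21 (23.8%) and 23.3%. For GABA and glutamate genes the counts were 9 of 21 and 12 of 26. Of the 71 distinct no-antibody peaks in the windows 36 (50.7%) overlapped peaks of both MEIS2 libraries, against 45.8% of all no-antibody peaks, and these places were left out of the reproducible set. In the windows 8.24% of the peaks of the first MEIS2 library overlapped a no-antibody peak, against 6.01% of all its peaks. Grid1, Gabrg3 and Grm8, of 671 to 860 kb, had 10, 9 and 7, while Grik2 (696 kb) had 3 and Grm7 (922 kb) had 4. Some of the places left out were strong with the antibody: at chr14:35533327-35533696 in Grid1 the overlapping MEIS2 peaks had 16.9-fold enrichment in both libraries, and the no-antibody peak had 6.24-fold in its own list. At chr14:34781085-34781477, before Grid1, the MEIS2 peaks had 16.2-fold and 17.0-fold and the no-antibody peak 14.0-fold. Folds from different lists are not on a common scale, so these values are given side by side only.

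Genes for proteins that work with these receptors, and for the subunits of glycine receptors, were set beside them. They are called partner genes here, and the order again depended on gene length. Of 44 such genes (auxiliary subunits, scaffolds, glycine receptor subunits and chloride transporters) 34 (77.3%) had an end peak, beside 29 of 47 (61.7%) receptor genes and 52.4% of all protein-coding genes. At 100 kb or longer the shares were 12 of 18 partner genes (66.7%), 19 of 26 receptor genes (73.1%) and 65.6% of all, and under 100 kb 22 of 26 (84.6%), 10 of 21 (47.6%) and 50.7%. The partner genes had a median length of 69.2 kb. By role, the counts were 10 of 12 for AMPA auxiliary subunits, 11 of 13 for glutamate receptor scaffolds, 5 of 6 for GABA-A partners, 2 of 4 for GABA-B auxiliary subunits, 2 of 2 for kainate auxiliary subunits, 2 of 5 for glycine receptor subunits and 2 of 2 for the chloride transporters Slc12a2 and Slc12a5. The strongest by the lower fold were Glrb, the beta subunit of glycine receptors (14.3-fold and 10.0-fold), Dlg1, a synaptic scaffold (10.3-fold and 9.08-fold), Lhfpl4, which anchors GABA-A receptors at synapses (9.31-fold and 8.84-fold), and Homer1, a scaffold of group I mGlu receptors (9.26-fold and 8.84-fold). As another family of neuronal channel genes, 94 potassium channel genes had an end peak in 54 (57.4%, against 52.4% of all) and a median density of 2.35 per 100 kb. At 100 kb or longer the potassium channel genes had an end peak in 12 of 23 (52.2%, against 65.6% of all such genes) and a median density of 1.05, and the receptor genes had 1.04.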

How the data were processed

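MEIS2 CUT&Tag peaks of mouse LGE were analysed from 2 MEIS2 libraries and 1 no-antibody library. Per the submitters' processing notes, the authors used Trimmomatic, Picard, Bowtie2 2.3.4, MACS2 2.1.4 and the mm10 build; the settings of the first 3 are not given in the sources used here. Per the file headers, peaks were called for each library alone by MACS 2.2.7.1, without a control library, with q below 0.05 and at most 1 tag kept at each position. The deposited lists give each peak's pileup (a coverage signal in extended tags), its fold enrichment (a ratio to the local expectation) and −log10 p-values and −log10 q-values. Tags were extended to modelled fragments of 162 to 233 bp, per the file headers, so summit positions are uncertain by about that length.

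Lists were compared by overlap with Python 3.11.15 and pandas 2.3.3 on chromosomes 1 to 19, X and Y. Genes and promoter sequences came from RefSeq tables of GRCm38.p6, which give strand for 32 of the 47 genes, so gene ends were taken without strand. The locally expected pileup was (pileup + 1) / fold − 1. Counting of peaks by gene was tested on simulated peaks. Beyond peak calling no test was made.

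Members and gene lists were chosen with earlier results of these data known. Genes named are the 10 with the strongest end peak, the 8 with most peaks and the 8 with highest density, every grouped gene, those with no-antibody peaks and the gene with no peak, and the first 4 partner genes. Others are named to complete their class, with their values known. The results of 5 of the 47 genes are not reported here by name, although counts and medians include them. Promoters shown are the 4 strongest and the first 2 empty ones in alphabetical order.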

Additional observations from a re-analysis of the deposited data

How the results depend on the processing

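Of 97 values recomputed under alternatives, 78 stayed within 1.5 times the reported count, or within 0.218 (1 SD between the MEIS2 libraries) for the median density, and 19 did not. Using only the 5000 peaks of highest fold in each list left 0 receptor genes with an end peak (0 GABA, 0 glutamate, 0 grouped and 0 single), 26 protein-coding genes with one, 15 receptor genes with a peak in the window, 24 distinct peaks and a median density of 0. A reciprocal overlap of 50% between the libraries left 10 glutamate and 12 single genes with an end peak. A −log10 q of at least 5 left 9 and 11, while the count of GABA genes was 11 under both. The orders of GABA against glutamate and of grouped against single genes turn there. The 50% overlap was also required for removal by a no-antibody peak, and the q cutoff was also applied to the no-antibody list. Counting inside the gene alone left 157 distinct peaks, and keeping peaks that overlap a no-antibody peak gave a median density of 1.52. Without 1 MEIS2 replicate, distinct peaks were 423 to 431 and the median density 1.85 to 2.16, so both depend on requiring 2 libraries. Without 1 replicate, end peaks were at 33 to 35 receptor genes, 12 to 15 GABA, 20 to 21 glutamate, 10 to 11 grouped and 23 to 24 single genes. Defining groups at 0.25 Mb left 16 grouped and 31 single genes. No paired analysis was possible because the no-antibody group holds 1 library, so the groups share fewer than 2 replicate numbers, and the results come from no test. Depth limits the weak peaks most: with unique tags near 10.3% of all tags or fewer, and pileups as low as 4 tags in a reproducible peak, a gene with no listed peak cannot be said to lack MEIS2.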
